A study of Homo sapiens with 6 samples.

Results

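The genes described here belong to the aryl hydrocarbon receptor (AHR) pathway, measured in AGS cells given celecoxib and in control AGS cells. The list held 10 genes: CYP1A1, CYP1A2, CYP1B1, CYP2S1, TIPARP, AHR, AHRR, ARNT, ARNT2 and ALDH3A1. A gene counted as measured where the array's annotation gave at least 1 transcript cluster, the array's unit of measurement, that symbol alone. This held for 9 of the 10, out of 18417 genes measured in all. The cluster of AHRR is shared with PDCD6 in the annotation, so no value is given for AHRR. Each of the 9 had 1 such cluster, so no choice between clusters by level was needed. CYP1A1 was already known to be among the changed genes of these data when the list was drawn up, and TIPARP and CYP2S1 were known to be higher.

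AGS is an established epithelial line derived from a human stomach carcinoma. Celecoxib is an inhibitor of cyclooxygenase-2. In the celecoxib group, cells seeded 48 h earlier were kept with 20 µM of the drug, dissolved in DMSO, for 24 h. The control group was labelled as given none, and the labels do not say whether DMSO was added to it. Each group had 3 arrays, for which 250 ng of total RNA was labelled. They are described as biological replicates, but RNA was also pooled at some stage, so the p-values reflect the spread among these arrays alone, part of which may be technical. The number of arrays limits the precision. All values are log2 expression from Affymetrix HuGene-1_0-st arrays, and every difference is celecoxib minus control, with its standard error (SE) from limma. Adjusted p-values are limma's, Benjamini-Hochberg adjusted over 18417 genes, with a threshold of 0.05.

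AHR is a transcription factor of the basic helix-loop-helix PAS family that waits in the cytoplasm with chaperones. Bound by a planar aromatic compound, it enters the nucleus, pairs with ARNT and binds DNA at dioxin response elements, which share the core GCGTG. CYP1A1 is the classical target and is widely used as a readout of receptor activity in epithelial cells, while TIPARP and AHRR are targets that dampen the receptor.

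Markers were compared with the label before the results. All 10 epithelial markers, among them the adhesion protein EPCAM and the keratins KRT8, KRT18 and KRT19, stood above the median of all clusters. Of 12 measured markers of blood, endothelial, stromal and liver cells, 2 did: CD68, above 71.5% of clusters, and COL1A1, above 64.5%. The lowest epithelial marker, CDH1, stood above 68.5%. The mean over the epithelial list ranged from 10.59 to 10.68 in the celecoxib arrays and from 10.65 to 10.71 in the controls. The mean over the other list ranged from 5.74 to 5.88 with celecoxib and from 5.73 to 5.86 in the controls. Neither list had a member past the threshold, which 0.141% of all genes passed. At an unadjusted p under 0.05 the epithelial list had 1 (10.0%) higher and 1 (10.0%) lower and the other list 0. Over all genes, 6.87% were higher and 4.44% lower. In a culture measured in bulk, more RNA per cell and more cells that express a gene cannot be told apart.

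Of the 9 measured genes, CYP1A1 alone passed the threshold, and it was 1.81-fold higher with celecoxib. TIPARP and CYP2S1 were 1.26-fold and 1.20-fold higher, with no overlap between the groups, and did not pass. The receptor AHR, its partners ARNT and ARNT2, the close relatives CYP1A2 and CYP1B1, and ALDH3A1 had intervals that included 0. Over all genes, 14 of 18417 (0.076%) were called higher and 12 (0.0652%) lower, and among the 9 genes 1 was called higher and 0 lower. In 3 of the 9 (33.3%) the celecoxib values all lay above the control values, where 11.1% of all genes did, and in 0 of the 9 they all lay below, where 7.95% of all genes did. Since these 3 genes were known to be higher when the list was made, the shares describe the list and nothing is read from them. The median difference of the 9 was 0.03, against -0.01 over all genes, and 6 of the 9 (66.7%) had differences above 0, where 47.9% of all genes did. The same 47.9% is the share over all genes for the counts above 0 in the lists below.

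**Figure D1:**
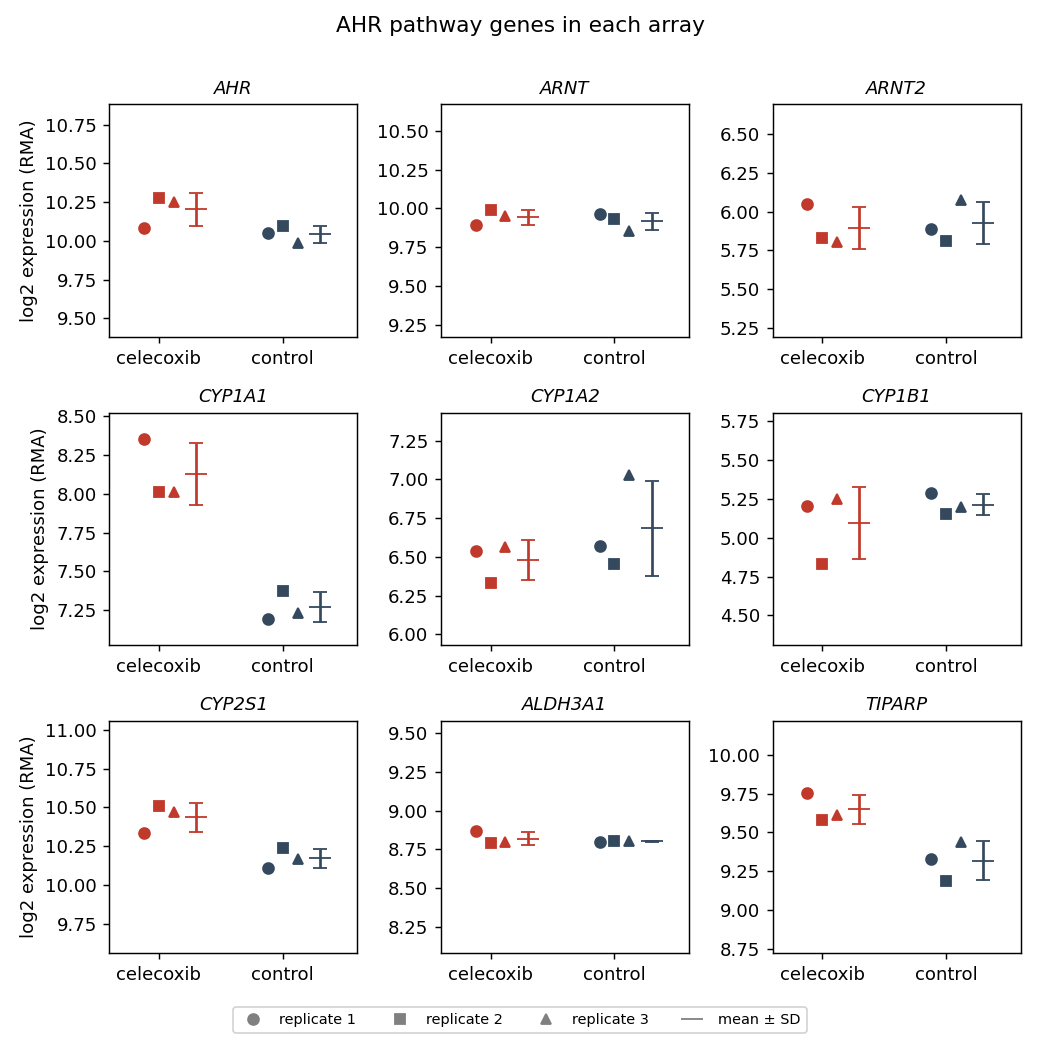
Log2 expression of the 9 measured genes in each array, celecoxib at left and control at right of each panel, with the mean ± SD (n = 3) beside the points. Every panel spans the same number of log2 units. CYP1A1 stands clear of its controls (8.01 to 8.36 with celecoxib and 7.19 to 7.38 in the controls), TIPARP and CYP2S1 lie just above theirs, and in the other 6 panels the groups overlap.

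The stretches of DNA before the start sites of the 3 genes whose groups did not overlap are shown, with that of CYP1A2, the neighbour and closest relative of CYP1A1, for comparison. They are the 250 bases before the most upstream annotated start (RefSeq, GRCh38.p14), 5′ to 3′ on the gene's own strand, with GCGTG, or its reverse complement CACGC, in capitals.
CYP1A1 (chr15:74725529-74725778, minus strand): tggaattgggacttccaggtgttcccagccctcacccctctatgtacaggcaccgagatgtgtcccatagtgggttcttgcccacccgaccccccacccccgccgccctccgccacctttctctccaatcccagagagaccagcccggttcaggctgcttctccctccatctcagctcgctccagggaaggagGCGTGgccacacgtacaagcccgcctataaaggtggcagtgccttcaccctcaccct
CYP1A2 (chr15:74748595-74748844, plus strand): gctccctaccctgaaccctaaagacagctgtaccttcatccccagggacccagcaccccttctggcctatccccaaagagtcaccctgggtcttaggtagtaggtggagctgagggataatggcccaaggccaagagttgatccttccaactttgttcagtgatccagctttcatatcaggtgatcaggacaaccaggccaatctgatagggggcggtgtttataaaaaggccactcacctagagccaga
CYP2S1 (chr19:41192969-41193218, plus strand): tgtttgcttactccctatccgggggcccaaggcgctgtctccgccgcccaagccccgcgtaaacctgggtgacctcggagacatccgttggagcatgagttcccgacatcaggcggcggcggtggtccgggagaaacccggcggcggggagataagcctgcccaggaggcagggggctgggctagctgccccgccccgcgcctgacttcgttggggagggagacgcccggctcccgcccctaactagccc
TIPARP (chr3:156674340-156674589, plus strand): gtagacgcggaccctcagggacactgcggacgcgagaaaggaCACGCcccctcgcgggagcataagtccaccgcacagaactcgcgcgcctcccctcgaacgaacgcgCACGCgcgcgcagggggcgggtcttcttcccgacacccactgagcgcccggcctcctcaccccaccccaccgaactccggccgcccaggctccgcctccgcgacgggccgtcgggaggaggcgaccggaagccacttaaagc

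CYP1A1 and CYP1A2 lie on chromosome 15 on opposite strands, with 23317 bases between their starts. The CYP1A1 window held 1 core, on the gene's strand, beginning 57 bases before the start. The TIPARP window held 2 cores on the other strand, with their leftmost bases 208 and 142 bases before the start. The table gives TIPARP other starts further downstream, and their windows held 0. The windows of CYP2S1 and CYP1A2 held 0. Windows with at least 1 GCGTG on either strand made up 32.2% of 35116 start sites in the RefSeq table, so the core by itself is common. The longer form TNGCGTG, which contains the core, was in 4.5% of windows and in none of the 4 shown. An AHRR window, not shown, held it, with the core beginning 30 bases before its start. The sequence TATAA, 40 to 20 bases before the start, was in the CYP1A1 and CYP1A2 windows and in 3.8% of all. Of the 10 genes, 7 were in the table, and 3 of these had a core in at least 1 of their windows: CYP1A1, TIPARP and AHRR. This count is per gene, and some genes had several windows, so it cannot be set against the 32.2% of start sites. GCGTG is also a form of the core bound by hypoxia-inducible factors with ARNT, and a match is not a site of binding. The response elements known for CYP1A1 lie further upstream than this window.

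AHR, the receptor itself, read 10.08, 10.28 and 10.25 in the celecoxib arrays, against 10.05, 10.10 and 9.98 in the controls. Celecoxib 2 and 3 lay above all controls and celecoxib 1 lay among them. The difference was 0.16 ± 0.08 (SE, n = 3 per group, limma adjusted p = 0.477), with a 95% interval from -0.02 to 0.34. With each array's small nuclear and nucleolar RNA level as a covariate (its values stand with CYP1A1), AHR differed by 0.30 ± 0.08 (limma adjusted p = 0.311; unadjusted p = 0.00606).

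ARNT, the partner with which AHR binds DNA, read 9.89, 9.99 and 9.95 with celecoxib, against 9.96, 9.93 and 9.85 in the controls. The groups overlapped throughout, and the difference of 0.03 had an interval from -0.13 to 0.19 (limma adjusted p = 0.894). ARNT2, a paralogue best known from neurons and kidney, read 6.05, 5.83 and 5.81 with celecoxib, against 5.89, 5.81 and 6.08 in the controls. Its mean exceeded the mean of only 33.8% of transcript clusters, and no background level was at hand to set it against. Its difference was -0.03, with an interval from -0.26 to 0.20.

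CYP1A1, a cytochrome P450 that oxidises polycyclic aromatic compounds, read 8.36, 8.01 and 8.01 in the celecoxib arrays, against 7.19, 7.38 and 7.23 in the controls. The lowest celecoxib value was 0.64 log2 units above the highest control, and celecoxib 1 was the highest array. The means were 8.13 ± 0.20 with celecoxib and 7.27 ± 0.10 in the controls (SD, n = 3). CYP1A1 rose by 0.86 ± 0.11 (SE, limma adjusted p = 0.0365), with an interval from 0.61 to 1.11. It had the 3rd highest difference and the 19th smallest p of all 18417 genes.

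Leaving out celecoxib 1 gave 0.75, and leaving out each of the other arrays gave 0.82 to 0.92. The call was lost in all 6 of these fits (limma adjusted p from 0.0724 to 0.258). The median level of 208 small nuclear and nucleolar RNA genes, was 7.68, 7.28 and 7.27 with celecoxib, against 7.15, 7.02 and 7.20 in the controls, so celecoxib 1 was highest there too. This level was itself higher in all celecoxib arrays, so it is partly confounded with the treatment, and a fit that includes it cannot tell them apart. With this level as a covariate the CYP1A1 difference was 0.68 ± 0.12 (limma adjusted p = 0.223).

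CYP1A2, known mainly as a P450 of the liver, read 6.54, 6.33 and 6.57 with celecoxib, against 6.57, 6.45 and 7.03 in the controls. The celecoxib values lay near those of controls 1 and 2, while control 3 stood higher. The difference was -0.21 ± 0.15 (SE, limma adjusted p = 0.601), with an interval from -0.54 to 0.13 that lay wholly below that of CYP1A1. Leaving out control 3 brought it to -0.03, and the small RNA covariate to -0.37. CYP1A1 and CYP1A2 are close in sequence, and whether each cluster's probes read 1 of them alone was not tested.

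CYP1B1, a P450 found mainly outside the liver and another textbook target of AHR, read 5.21, 4.83 and 5.25 with celecoxib, against 5.29, 5.15 and 5.20 in the controls. Celecoxib 2 was the lowest array and the others lay close together. The difference was -0.12 ± 0.12 (SE, limma adjusted p = 0.709), with an interval from -0.38 to 0.15. Its sign rested on celecoxib 2, without which it was 0.01. The mean of CYP1B1 exceeded only 21.6% of clusters, so it was the dimmest of the 9.

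CYP2S1, a dioxin-inducible P450 of epithelia, read 10.33, 10.51 and 10.47 with celecoxib, against 10.11, 10.24 and 10.17 in the controls. All celecoxib values lay above all controls, by 0.10 log2 units at the closest. The difference was 0.27 ± 0.08 (SE, limma adjusted p = 0.304; unadjusted p = 0.0083), with an interval from 0.09 to 0.44. Celecoxib 1 was the lowest of its group here, unlike for CYP1A1, and the difference was 0.38 with the small RNA covariate.

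ALDH3A1, an aldehyde dehydrogenase induced through AHR in liver cells, read 8.87, 8.79 and 8.80 with celecoxib, against 8.80, 8.80 and 8.81 in the controls. The arrays were nearly level, and the difference of 0.02 had an interval from -0.13 to 0.16 (limma adjusted p = 0.935).

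TIPARP, also called PARP7, is an ADP-ribosyltransferase that AHR induces and that in turn lowers the receptor's activity. It read 9.76, 9.58 and 9.61 with celecoxib, against 9.33, 9.19 and 9.43 in the controls. The groups were 0.14 log2 units apart at the closest, between celecoxib 2 and control 3, and celecoxib 1 was highest. The difference was 0.33 ± 0.09 (SE, limma adjusted p = 0.275; unadjusted p = 0.00551), with an interval from 0.13 to 0.54. It was 0.18 with the small RNA covariate and 0.28 without celecoxib 1.

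**Figure D2:**
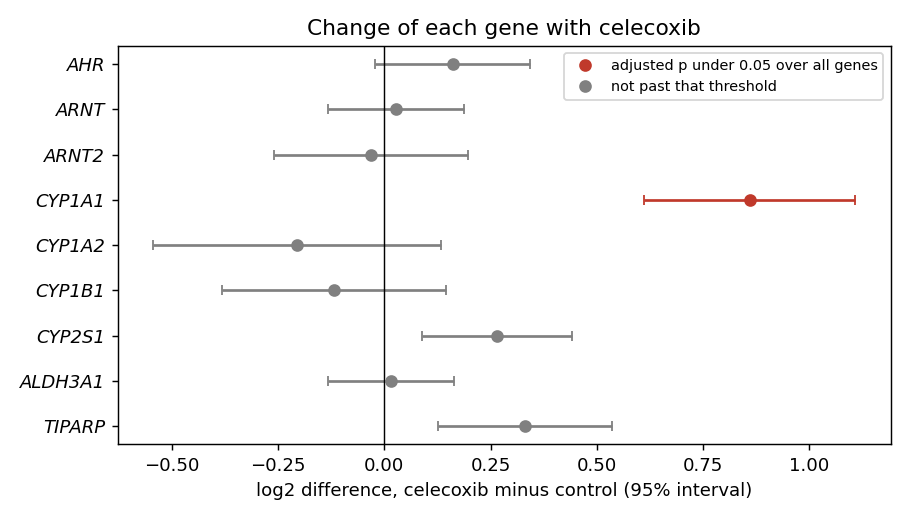
Log2 difference, celecoxib minus control, of the 9 measured genes with 95% intervals from limma. The interval of CYP1A1 runs from 0.61 to 1.11, those of TIPARP (0.13 to 0.54) and CYP2S1 (0.09 to 0.44) lie above 0, and the other 6 include 0.

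The P450 genes of families 1 to 4 gave the wider setting, since many of them respond to drugs. Of 29 measured, 14 had differences above 0 and 15 below, the median was -0.01, and 1, CYP1A1, was called, where 0.141% of all genes were. None of the other 28 had an interval that reached the CYP1A1 lower bound of 0.61, but differences between genes were not tested. CYP4V2, a fatty acid hydroxylase, followed CYP1A1 in size at 0.32 ± 0.08 (SE, limma adjusted p = 0.264). CYP3A5, a relative of the main drug-oxidising P450 CYP3A4, differed by 0.20 (adjusted p = 0.364). CYP4F8 had the lowest difference of the 29, at -0.22 ± 0.11 (limma adjusted p = 0.474), with overlapping groups. CYP1A1, CYP4V2, CYP2S1 and CYP3A5 were the 4 genes (13.8%) whose intervals lay above 0, and 0 intervals lay below, where 6.87% and 4.44% of all genes were on these sides. CYP1A1 and CYP2S1 were known to be higher when the pathway list was made. Of the 25 P450 genes outside that list, 2 (8.0%) had intervals above 0 and 0 below.

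**Figure D3:**
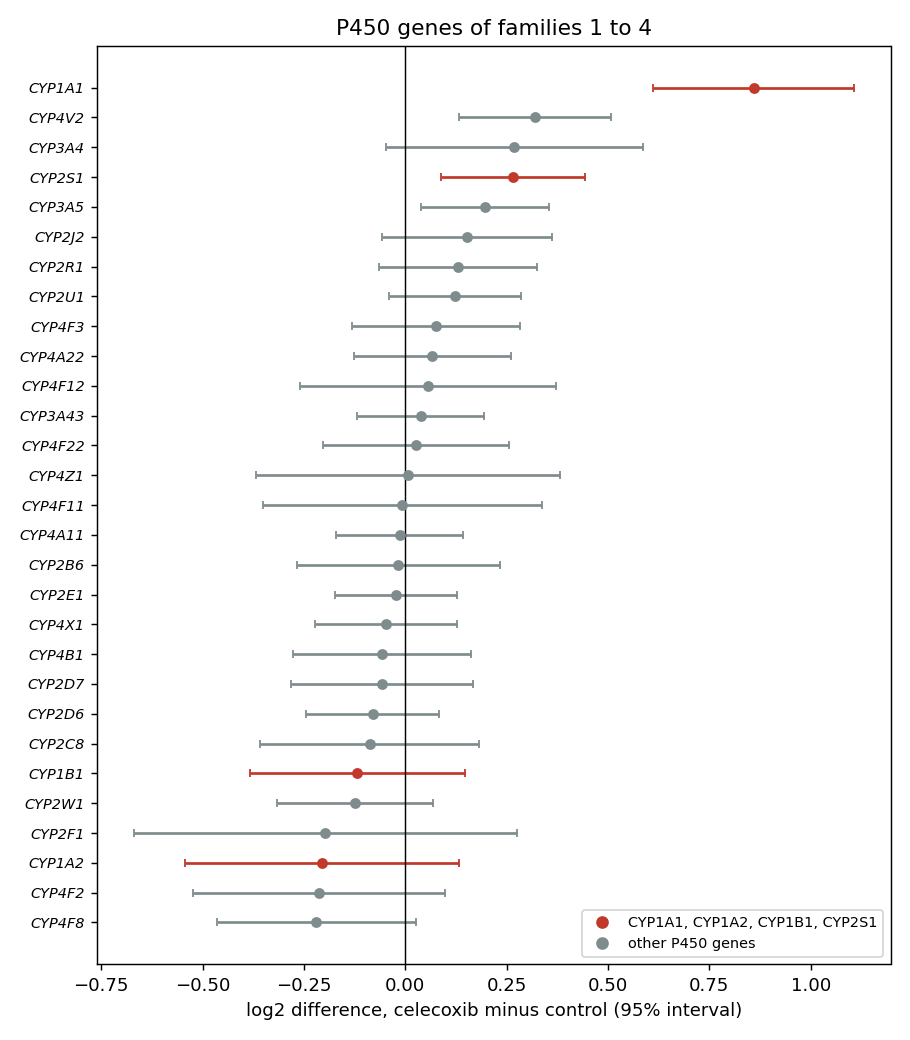
Log2 difference, celecoxib minus control, of 29 P450 genes of families 1 to 4, in order of size, with 95% intervals. CYP1A1 stands apart at the top at 0.86, CYP2S1 is near the upper end, and CYP1B1 and CYP1A2 are near the lower end.

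Other genes reported as AHR targets went both ways. Of 25 listed, 21 were measured, 10 with differences above 0 and 11 below, with a median of -0.01 and 0 called by limma, where 0.141% of all genes were called in either direction. At an unadjusted p under 0.05, 3 (14.3%) were higher and 3 (14.3%) lower, where 6.87% and 4.44% of all genes were. NQO1, a quinone reductase controlled by both AHR and NRF2, read 12.33, 12.21 and 12.20 with celecoxib, against 11.90, 11.93 and 11.97 in the controls. Its groups did not overlap, and the difference was 0.32 ± 0.07 (SE, limma adjusted p = 0.197). GSTA1, a glutathione transferase, differed by 0.42 ± 0.11 (adjusted p = 0.276), and by 0.19 with the small RNA covariate and 0.25 with array weights. SLC3A2, the heavy chain of amino acid transporters, differed by 0.27 ± 0.07 (adjusted p = 0.266). The 3 on the lower side, HES1, IDO1 and SLC7A5, were named after their values were seen. HES1, a transcriptional repressor of the Notch pathway, read 8.94, 9.04 and 8.98 with celecoxib, against 9.17, 9.19 and 9.26 in the controls, with no overlap. Its difference was -0.22 ± 0.07 (SE, limma adjusted p = 0.328). IDO1, a dim gene of tryptophan breakdown, differed by -0.41 ± 0.14 (adjusted p = 0.363). SLC7A5, the light chain that pairs with SLC3A2, differed by -0.41 ± 0.16 (adjusted p = 0.413) with overlapping groups, by -0.24 without celecoxib 1 and by -0.03 with the small RNA covariate.

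Of the chaperones, coactivators and other proteins that work with AHR, 12 of 15 were measured, 4 with differences above 0 and 8 below. The median was -0.02, and 0 were called by limma, where 0.141% of all genes were. At an unadjusted p under 0.05, 1 (8.3%) was higher and 0 lower, where 6.87% and 4.44% of all genes were. CUL4B, a scaffold of the ubiquitin ligase that contains AHR, differed by 0.22 ± 0.08 (SE, limma adjusted p = 0.367), with all celecoxib values above the controls. SP1, a factor that cooperates with AHR at CYP1A1, differed by -0.20, and the nuclear exporter XPO1 by -0.21. Both overlapped between the groups. Without celecoxib 1 they were -0.07 and -0.08, and with the small RNA covariate their signs turned, to 0.07 and 0.10. CUL4B was 0.14 with that covariate.

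Of the other bHLH-PAS factors, several of which compete for ARNT, 14 of 15 were measured, 5 above 0 and 9 below. The median was -0.04, and 0 were called by limma, where 0.141% of all genes were. At an unadjusted p under 0.05, 0 were higher and 1 (7.1%) lower, where 6.87% and 4.44% of all genes were. HIF1A, the oxygen-sensitive partner of ARNT, read 11.56, 11.61 and 11.61 with celecoxib, against 11.83, 11.72 and 11.73 in the controls. All celecoxib values lay below the controls, and the difference was -0.17 ± 0.07 (SE, limma adjusted p = 0.421). SIM2 differed by -0.28 and the clock factor BMAL1 by -0.14, with overlapping groups. Without celecoxib 1 they were -0.11 and -0.08, and BMAL1 was -0.06 without control 2 and -0.04 with array weights. Both signs turned with the small RNA covariate, to 0.10 for SIM2 and 0.02 for BMAL1.

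Electron donors of P450 enzymes, enzymes of haem synthesis and breakdown, and related partners had 11 of 12 members measured, 9 above 0 and 2 below, with a median of 0.13 and 0 called by limma. Over all genes, 47.9% were above 0, the median was -0.01 and 0.141% were called. At an unadjusted p under 0.05 there were 3 (27.3%) higher and 0 lower, where 6.87% of all genes were higher and 4.44% lower. HMOX1, which breaks down haem, differed by 0.29 ± 0.10 (SE, limma adjusted p = 0.363), by 0.18 without celecoxib 1 and by 0.08 with the small RNA covariate. The cytochrome b5 reductase CYB5R1 differed by 0.25 ± 0.09, by 0.16 with array weights and by 0.10 with the covariate. CYB5B, a cytochrome b5 of the outer mitochondrial membrane, differed by 0.17 ± 0.06. The list's median was 0.02 without celecoxib 2.

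The profile of CYP1A1 over the 6 arrays was compared with those of 10486 other genes, each centred on its own mean. These were above the median signal and remained after some types of symbol were left out. The measure was the root mean square distance in log2 units, whose median over these genes was 0.451. The 5 nearest genes were IGFL4, which encodes a small secreted protein, at 0.0762, the membrane protein gene TMEM45B at 0.112, the phosphodiesterase SMPDL3A at 0.138, the stress transcription factor DDIT3 at 0.153 and the C2-domain protein MCTP1 at 0.160. A small distance needs values like those of CYP1A1 in every array, celecoxib 1 included. These genes were thus picked by the contrast itself, and their differences and order of arrays are descriptions. They ranged from 0.66 for DDIT3 to 0.82 for IGFL4, and in all 5 the groups did not overlap and celecoxib 1 was the highest array. Among the AHR pathway genes, TIPARP was nearest at 0.297, then CYP2S1 at 0.341 and AHR at 0.393, and CYP1A2 was farthest at 0.582.

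**Figure D4:**
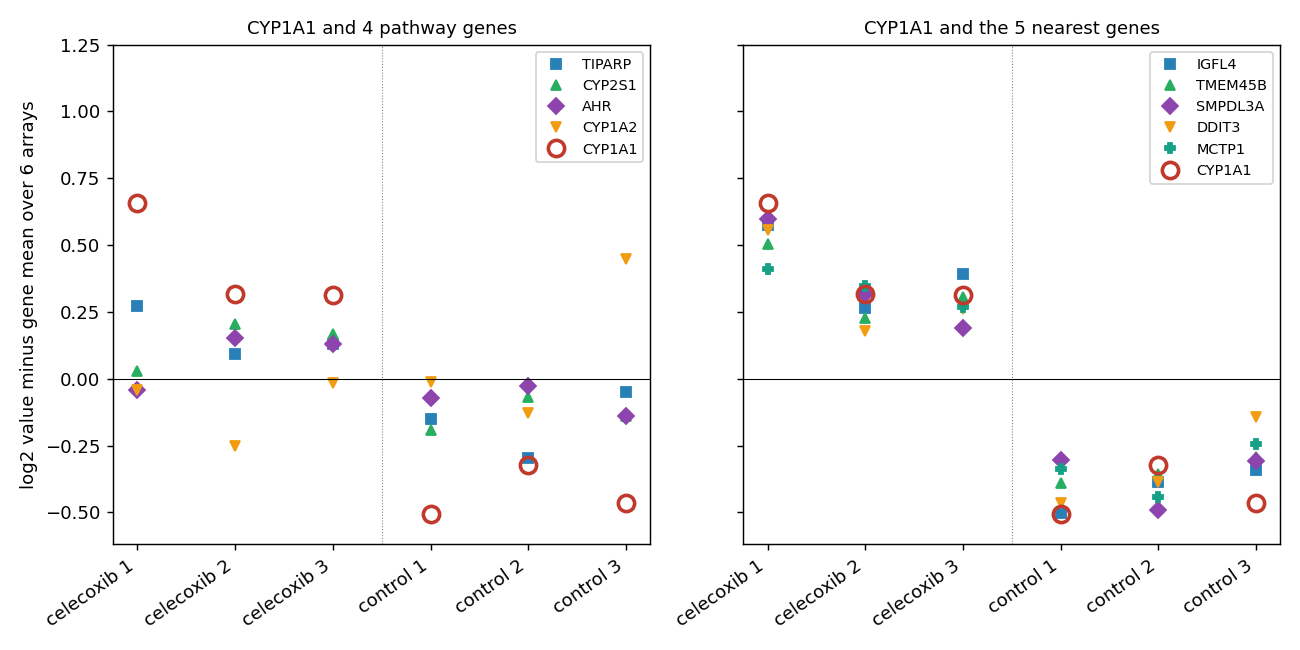
Log2 value minus the gene's mean over 6 arrays, for CYP1A1 (open circles) with 4 pathway genes at left and with the 5 nearest genes at right. The 5 nearest genes, picked for their likeness to CYP1A1 over these arrays, have celecoxib 1 on top. TIPARP is also highest in celecoxib 1 (0.27), and CYP2S1 (0.03) and AHR (-0.04) are lowest of their group in celecoxib 1.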

How the data were processed

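RNA of celecoxib-treated and control AGS cells was hybridised to HuGene-1_0-st arrays, 3 per group. The authors deposited log2 values for 33297 transcript clusters, made with RMA in Affymetrix Expression Console 1.1 per the submitters' processing notes. Scanner files, slides and scan dates were not used here, so background levels and batches were not tested. The median of an array lay between 6.75 and 6.82, and Pearson's r between arrays, across clusters, between 0.985 and 0.996.

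Clusters with 1 gene symbol in the platform annotation (19460, against 1754 with several and 12083 unnamed here) were kept, and the cluster with the highest mean stood for a gene with several, leaving 18417 genes. Groups came from the labels. Celecoxib was compared with control in a linear model with moderated variances (limma 3.58.1, R 4.3.3), two-sided, with no filter on signal, and the procedure was tested on simulated data. The genes and lists were chosen with earlier results of these data known. Named are the pathway genes, the 5 genes nearest to CYP1A1 and the 3 with the smallest p in each list. Symbols that began with LOC, LINC, FAM, KIAA, MIR, SNOR or RNU, or with C, a number and orf, were left out of the nearest genes. Alternatives were other summaries, filters, normalizations and variance priors, array weights, the replicate number, small RNA level and leaving out arrays. Promoter windows were read from RefSeq's start sites (GRCh38.p14). Figures were drawn with matplotlib 3.10.9.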

Additional observations from a re-analysis of the deposited data

How the results depend on the processing

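CYP1A1 was higher with celecoxib in all 18 alternatives and past the threshold in 10. Each pathway gene had 1 cluster, so the choice of clusters, the filters, the variance priors and the block could not alter its difference. Without 1 array, and with array weights, the sign of CYP1A1 was fixed too, since all its celecoxib values lay above all controls. With the replicate number as a block the CYP1A1 difference was thus the same 0.86, but the call was lost (limma adjusted p = 0.109). It was 0.68 with the small RNA level as a covariate (limma adjusted p = 0.223). Leaving out 1 array gave 0.75 to 0.92. In these 8 fits 0 of the pathway genes were called. The 18417 genes gave 26 calls, and 76 where genes below the median signal were left out, 53 where the dimmest 20% were, 40 with quantile normalization again, 47 with cyclic loess, 69 with an intensity trend and 69 with a robust prior added. There were 177 with array weights, 1 with the covariate, 0 with the block (2448 at an unadjusted p under 0.05), and 0 to 5 without 1 array (1293 to 2353 unadjusted). Why these counts moved was not tested, but fits with fewer arrays have fewer degrees of freedom.

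Same-numbered arrays deviated together with r = -0.02, 0.49 and 0.01 for replicates 1, 2 and 3 over all genes. The 0.49 was the highest of all combinations, and celecoxib 1 correlated best with control 3 (0.41). Deviations from a mean of 3 arrays depend on one another, so these values cannot decide whether arrays were paired. The labels state no pairing. The other 8 pathway genes were called in 0 of 141 combinations of gene and alternative. All alternatives reuse the same 6 arrays, and each called only 0 to 177 of all genes tested. This 0 is thus no evidence that the 8 genes were unchanged. TIPARP ranged from 0.18 to 0.39, CYP2S1 from 0.23 to 0.38 and AHR from 0.12 to 0.30. ARNT kept its sign in 17 of 18 alternatives, ALDH3A1 in 15 of 18, ARNT2 in 13 of 17 and CYP1B1 in 16 of 17. These counts include the cluster choices, filters, variance priors and block, which could not alter the signs, so they do not measure stability. Among genes above the median signal the median difference was 0.21 for the 6 pathway genes left and 0.14 for the P450 genes. This filter left out CYP1A2, CYP1B1 and ARNT2, the 3 pathway genes with differences below 0. With array weights NQO1 (adjusted p = 0.0479) and DDIT3 (0.0133) passed, and DDIT3 was 0.42 with the covariate. SMPDL3A passed in 5 alternatives. The dim CYP1B1, ARNT2 and CYP1A2 are limited by signal that could not be set against background.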

Other observations

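Genes of tryptophan breakdown, which yields kynurenine, a natural AHR ligand, had 11 of 12 members measured, 4 with differences above 0 and 7 below. Of these, 0 were called by limma, where 0.141% of all genes were. At an unadjusted p under 0.05, 1 (9.1%) was higher and 1 (9.1%) lower, where 6.87% and 4.44% of all genes were. IDO1, an enzyme that opens the tryptophan ring, read 4.37, 4.40 and 4.03 with celecoxib, against 4.59, 4.48 and 4.95 in the controls. All celecoxib values lay below the controls, and the difference was -0.41 ± 0.14 (SE, limma adjusted p = 0.363), but its mean exceeded only 13.2% of clusters. Without control 3 it was -0.27. AFMID, the formamidase of the next step, differed by 0.18 ± 0.07 (adjusted p = 0.379), with groups that did not overlap. IDO2, as dim as IDO1, differed by 0.24 ± 0.19, and from 0.03 without celecoxib 3 to 0.43 without celecoxib 1.

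Xenobiotic and lipid receptors other than AHR had 7 of 9 members measured, 3 above 0 and 4 below. Of these, 0 were called by limma, where 0.141% of all genes were. At an unadjusted p under 0.05, 0 were higher and 0 lower, where 6.87% and 4.44% of all genes were. RXRA, the shared partner of these receptors, differed by -0.27 ± 0.13 (SE, limma adjusted p = 0.482), the vitamin D receptor VDR by 0.11, and NR1H3, the oxysterol receptor LXR-alpha, by 0.09. Without celecoxib 1, RXRA was -0.14 and VDR 0.03, and with the small RNA covariate both signs turned, to 0.05 for RXRA and -0.03 for VDR.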
